A study of Mus musculus with 19 samples.

Results

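The core pluripotency factors described here are 6 genes, Pou5f1, Sox2, Nanog, Sall4, Utf1 and Zfp42, chosen by name from the 54119 genes of the deposited table. All 6 were among the 14972 genes tested. Their transcript values were summed per gene and followed in mouse embryonic stem cells (mESC) and in epiblast-like cells (EpiLC), a culture state made from mESC that stands for the epiblast just after implantation. The study asked whether the dioxygenase TET3, which oxidises methylated cytosine in DNA, is required when mESC turn into EpiLC.

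There were 19 libraries in 6 groups. The XX groups were wild-type cells of the LF2 line, with 3 mESC and 3 EpiLC libraries. The XY groups were wild-type cells of the E14 line, with 3 libraries in each state, so the sex chromosomes and the line cannot be told apart. The Tet3-/- groups were mutants of the XX LF2 line, with mESC libraries numbered #1 to #4 and EpiLC libraries #1, #3 and #4. The labels do not say whether a mutant number stands for a clone, or whether libraries came from separate cultures, so p-values measure the spread between these libraries only. All mESC were cultured in 2i medium, which inhibits GSK3 and MEK1/2, with LIF, and all EpiLC had been fed FGF5 and Activin A without LIF for 5 days.

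OCT4 (the product of Pou5f1), SOX2 and NANOG are transcription factors that sit together at the enhancers of pluripotency genes, their own genes among them. OCT4 and SOX2 bind DNA side by side, at a SOX element followed by an octamer. Cells that leave the naive state keep OCT4, lower the naive genes and take up new SOX and POU factors. SALL4 is a zinc finger protein that binds OCT4 and NANOG and recruits the NuRD repressor complex. UTF1 is a chromatin-bound protein of undifferentiated cells, and ZFP42 (REX1) is a zinc finger protein related to YY1 whose gene is a standard marker of the naive state.

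The octamer ATGCAAAT, its first letters ATGCAAA and the SOX and octamer composite (CATTGT, any base, then ATGCAAA) were searched on both strands of RefSeq promoter windows of 300 bases (GRCm38.p6), from 250 bases before to 50 after a gene's start. The shorter motif is contained in both longer ones. Of the 6 factors, 5 had windows, 7 in all, and Sall4 is named only. The stretches around the matches are shown because they carry the letters that OCT4 and SOX2 are known to read; capitals mark the match, and each is written 5′ to 3′ on the strand of its gene.
Sox2, chr3:34649861-34649937 (+): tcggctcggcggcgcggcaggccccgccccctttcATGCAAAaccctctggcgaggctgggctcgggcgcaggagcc
Nanog, chr6:122707379-122707462 (+): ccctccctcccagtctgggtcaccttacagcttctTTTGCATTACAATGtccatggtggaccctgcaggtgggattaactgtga
Zfp42, chr8:43307153-43307230 (-): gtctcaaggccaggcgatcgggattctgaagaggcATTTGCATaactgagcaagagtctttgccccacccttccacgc

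The match in Nanog was the whole composite, read on the opposite strand, and its first base lay 75 bases before the start. The composite occurred in 2 of 32817 windows (0.00609%), and both were windows of Nanog. These 2 windows overlap and hold the same site, which lies 151 bases before the start of the second. Zfp42 held the full octamer on the opposite strand 186 bases before its start, as did 1.74% of all windows. Sox2 held ATGCAAA 99 bases before its start, as did 4.63% of all windows. These letters are not in the windows of Pou5f1 and Utf1. Starts here are those of the RefSeq windows. They differ from the gene coordinates given below for every window but the Nanog one with its match at 75 bases. A match is a description of the sequence and not a measured binding site.

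A few facts of the whole series bear on the values. TPM is a share of each library scaled for transcript length, with the same total in each, and abundant non-coding RNA took much of it, since Rn7s1 held 23.5% to 43.7% per library. Nuclear protein-coding genes held 21.4% to 46.7% of TPM, and the mean was 45.5% (SD 1.04) over the 3 XY EpiLC libraries against 29.7% (SD 1.06) over the 3 XX ones. Medians of log2 fold changes over the genes tested were not 0. From mESC to EpiLC they were 0.14 for XX, 0.54 for XY and -0.13 for Tet3-/-. Between Tet3-/- and XX they were 0.19 (mESC) and -0.07 (EpiLC), and between XX and XY -0.19 (mESC) and -0.59 (EpiLC). Values divided by a median-of-ratios size factor, called scaled below, brought each median within 0.02 of 0. They are given beside the TPM values of the 6 factors where they change a call or a direction, and beside the counts of the gene lists where they change a count. The sequencing depth cannot be read from TPM. Tet3 itself was low in every library, at 0.536 to 1.06 TPM in XX mESC and 0.532 to 0.916 TPM in Tet3-/- mESC, and at 1.21 to 1.90 TPM in XX EpiLC and 0.693 to 1.42 TPM in Tet3-/- EpiLC. It was called in neither comparison, and these ranges overlapped.

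The labelled states were checked against marker genes. The summed level of 8 naive markers was 236 to 404 TPM in the mESC libraries, and 28.1 to 33.2 TPM in XX EpiLC, 3.50 to 3.94 TPM in XY EpiLC and 7.09 to 20.6 TPM in Tet3-/- EpiLC. The sum of 6 EpiLC markers was 13.8 to 36.2 TPM in mESC, 317 to 407 TPM in XY EpiLC, 47.0 to 166 TPM in Tet3-/- EpiLC and 42.9 to 51.1 TPM in XX EpiLC. These 6 did not all move alike. Means of Fgf5, Pou3f1, Dnmt3b and Zic2 were higher in EpiLC in each genotype. The Otx2 mean went from 18.9 to 11.0 TPM in XX and from 20.6 to 17.0 TPM in Tet3-/-, but from 1.74 to 62.6 TPM in XY. Lef1 had means of 0.206 and 0.270 TPM in XX. Dnmt3b alone had a mean of 25.8 TPM in XX EpiLC. The library of Tet3-/- EpiLC mutant #3 stood apart. Its 6 mesendoderm markers summed to 133 TPM, against 4.55 and 5.30 TPM in mutants #1 and #4, and its 8 trophectoderm markers to 31.3 TPM, against 6.36 and 7.04 TPM. Of the 31.3 TPM, 17.4 TPM was Eomes alone, while Elf5, Hand1 and Plac1 were under 1 TPM in every library. This sum therefore does not stand for all 8 markers. Of the 133 TPM, 94.3 TPM was T alone, while Mesp1 was at most 0.214 TPM in any library. The mesendoderm sum therefore does not stand for all 6 markers either. These mesendoderm markers summed to at most 32.6 TPM in the XY EpiLC libraries, where T had a mean of 23.3 TPM. Of the EpiLC markers, the 166 TPM were in the library of mutant #3. Tests of the 6 factors and counts of the gene lists that rest on the Tet3-/- EpiLC group are given with and without it; the part of these markers in them was not tested. Fibroblast markers summed to at most 9.90 TPM in any library.

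**Figure D1:**
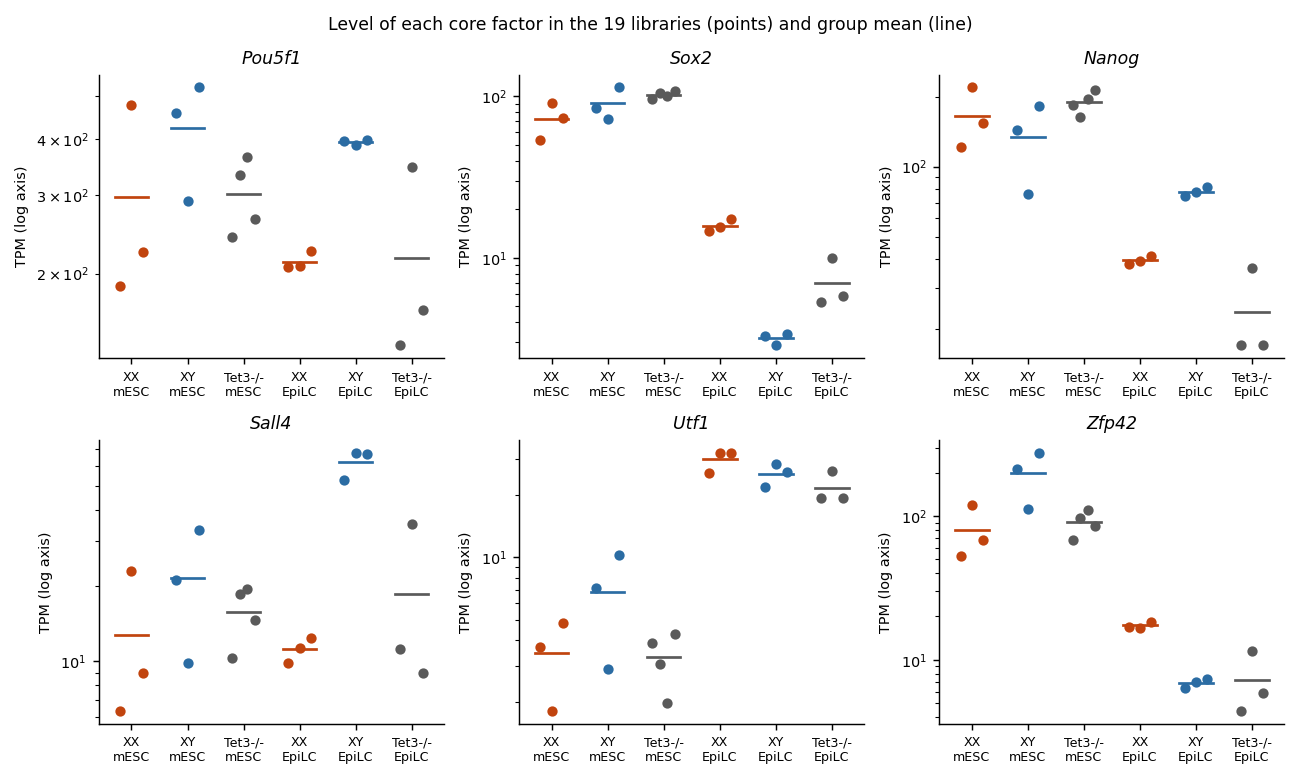
TPM of each core factor in the 19 libraries, on a log axis for each gene; points are libraries and lines are group means, with XX in rust red, XY in blue and Tet3-/- in grey. Pou5f1 lies between 138 and 522 TPM in every library, while Sox2 and Zfp42 are below 20 TPM in every EpiLC library and above 50 TPM in every mESC library.

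Pou5f1 (ENSMUSG00000024406.16, chromosome 17, 35506018 to 35510772, GRCm38) encodes OCT4, and it was the most abundant of the 6, with rank 229 of all genes by its mean of 307 TPM over the 19 libraries. It had 187, 478 and 224 TPM in XX mESC libraries 1, 2 and 3, and 207, 208 and 224 TPM in XX EpiLC. In XY it had 457, 291 and 522 TPM in mESC and 396, 389 and 398 TPM in EpiLC. Both pairs of groups overlapped, and the spread was wide in mESC and narrow in EpiLC. In Tet3-/- it had 242, 332, 366 and 265 TPM in mESC mutants #1 to #4, and 138, 346 and 166 TPM in EpiLC mutants #1, #3 and #4.

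The log2 fold change of Pou5f1 from mESC to EpiLC was -0.35 (SE 0.34, limma adjusted p 0.496) in XX, -0.06 (SE 0.34, limma adjusted p 0.898) in XY and -0.57 (SE 0.32, limma adjusted p 0.189) in Tet3-/-. It was called in none of the 3 transitions on TPM. On scaled values it fell in XX by 0.57 (limma adjusted p 0.0301) and in XY by 0.74 (limma adjusted p 0.00696), with no overlap between the groups. The scaled change in Tet3-/- was -0.40 (limma adjusted p 0.0953). Without mutant #3 the Tet3-/- change on TPM was -0.97 (limma adjusted p 0.0176), and on scaled values -0.49 (limma adjusted p 0.0700). The sign of the change was the same on both scales, and its size was at most 1 log2 unit on either, while Sox2 and Zfp42 changed by more than 2.

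Sox2 (ENSMUSG00000074637.7, chromosome 3, 34650405 to 34652461) encodes the DNA-binding partner of OCT4. It had 53.7, 91.4 and 73.8 TPM in XX mESC and 14.6, 15.5 and 17.3 TPM in XX EpiLC. In XY it had 84.7, 72.9 and 113.7 TPM in mESC and 3.27, 2.87 and 3.40 TPM in EpiLC. In Tet3-/- it had 96.1, 105.4, 101.1 and 107.5 TPM in mESC and 5.31, 9.93 and 5.81 TPM in EpiLC. The 3 mESC groups overlapped in a chain, and the 3 EpiLC groups did not overlap at all, with XX highest, Tet3-/- next and XY lowest.

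Sox2 fell in each transition, by 2.11 log2 units in XX (SE 0.24, limma adjusted p 1.6e-06), by 4.43 in XY (SE 0.24, limma adjusted p 9.0e-11) and by 3.73 in Tet3-/- (SE 0.23, limma adjusted p 3.9e-10). As ratios of group means these are 4.62-fold, 28.4-fold and 14.6-fold lower levels in EpiLC. The Tet3-/- change was -3.98 without mutant #3 (limma adjusted p 3.4e-10). Scaled values gave the same calls.

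Nanog (ENSMUSG00000012396.12, chromosome 6, 122707489 to 122714633) encodes the homeodomain factor of the network. It had 122, 219 and 155 TPM in XX mESC and 38.2, 39.4 and 41.4 TPM in XX EpiLC. In XY it had 144, 76.6 and 183 TPM in mESC and 74.9, 77.6 and 81.8 TPM in EpiLC. In Tet3-/- it had 184, 164, 196 and 215 TPM in mESC and 17.0, 36.8 and 17.0 TPM in EpiLC. The XX groups and the Tet3-/- groups were separate, and in XY the mESC library 2 lay among the EpiLC libraries.

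Nanog fell by 1.99 log2 units in XX (SE 0.32, limma adjusted p 6.8e-05) and by 3.04 in Tet3-/- (SE 0.30, limma adjusted p 1.5e-07). With mutant #3 left out the Tet3-/- change was -3.40 (limma adjusted p 5.0e-08). Its change in XY was -0.69 on TPM (SE 0.32, limma adjusted p 0.0758). Without XY mESC library 2 that change was -1.05 (limma adjusted p 0.0103), and on scaled values, where the XY groups did not overlap, it was -1.36 (limma adjusted p 1.9e-07).

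Sall4 (ENSMUSG00000027547.17, chromosome 2, 168748332 to 168767943, minus strand) had 6.34, 22.9 and 8.99 TPM in XX mESC and 9.83, 11.3 and 12.3 TPM in XX EpiLC. In XY it had 21.05, 9.82 and 33.4 TPM in mESC and 52.8, 67.7 and 66.7 TPM in EpiLC. In Tet3-/- it had 10.3, 18.6, 19.5 and 14.5 TPM in mESC and 11.2, 35.2 and 8.96 TPM in EpiLC. Only XY EpiLC was separate from every other group, and mutant #3 was the highest library outside it.

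Sall4 rose in the XY transition, by 1.64 log2 units on TPM (SE 0.48, limma adjusted p 0.00811) and by 0.99 on scaled values (limma adjusted p 0.0092). The TPM call rested on XY mESC library 2, without which the change was 1.19 (limma adjusted p 0.0629). The change was 0.01 in XX (95% interval -0.997 to 1.01) and 0.01 in Tet3-/- (-0.93 to 0.95), and -0.56 in Tet3-/- without mutant #3 (limma adjusted p 0.299). On scaled values the XX change was -0.19 and the Tet3-/- change 0.17, so neither direction was settled.

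Utf1 (ENSMUSG00000047751.9, chromosome 7, 139943789 to 139945112) was the least abundant of the 6 in mESC. It had 3.70, 1.82 and 4.84 TPM in XX mESC and 25.6, 32.0 and 32.1 TPM in XX EpiLC. In XY it had 7.16, 2.90 and 10.3 TPM in mESC and 22.01, 28.4 and 25.8 TPM in EpiLC. In Tet3-/- it had 3.88, 3.04, 1.98 and 4.28 TPM in mESC and 19.4, 26.3 and 19.3 TPM in EpiLC. Every EpiLC library was above every mESC library.

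Utf1 rose by 2.85 log2 units in XX (SE 0.34, limma adjusted p 2.3e-06), by 1.88 in XY (SE 0.34, limma adjusted p 0.000142) and by 2.42 in Tet3-/- (SE 0.31, limma adjusted p 5.7e-06). These are 8.65-fold, 3.74-fold and 6.57-fold ratios of group means. In Tet3-/- without mutant #3 the rise was 2.28 (limma adjusted p 5.8e-05). The rise was called on scaled values in each transition as well, at 2.67, 1.26 and 2.59.

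Zfp42 (ENSMUSG00000051176.6, chromosome 8, 43295063 to 43306980, minus strand) had 52.9, 120.1 and 68.5 TPM in XX mESC and 16.9, 16.7 and 18.4 TPM in XX EpiLC. In XY it had 214, 111 and 276 TPM in mESC and 6.39, 7.02 and 7.34 TPM in EpiLC. In Tet3-/- it had 68.0, 97.4, 110.5 and 85.6 TPM in mESC and 4.41, 11.5 and 5.86 TPM in EpiLC. The states were separate in each genotype, and in EpiLC the XX libraries were above all others.

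Zfp42 fell by 2.07 log2 units in XX (SE 0.35, limma adjusted p 0.00014), by 4.57 in XY (SE 0.35, limma adjusted p 6.0e-09) and by 3.54 in Tet3-/- (SE 0.33, limma adjusted p 8.4e-08). The ratios of group means were 4.64-fold, 29.0-fold and 12.4-fold. In Tet3-/- without mutant #3 the change was -3.88 (limma adjusted p 7.0e-08).

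Reads of some of these genes can be shared with other genes. Zfp42 shares sequence with Zfp42-ps1, a pseudogene on chromosome 15 (93679160 to 93679649) that matches 266 bases of Zfp42 at 98.1% identity. It had a mean of 14.5 TPM in XY mESC and of at most 6.64 TPM in each other group. Nanog-ps1, which matches 245 bases of Nanog, had at most 0.236 TPM. Gm19553, on the strand opposite to Pou5f1 and overlapping 171 of its bases, had at most 0.0945 TPM. The search kept a limited number of matches for each transcript, so the next count can be too low. A further 56 genes share stretches of up to 190 bases at 95% identity or more with Nanog, all between bases 984 and 1189 of the 1995 bases of its longest transcript. Of these, 42 reached a group mean of 1 TPM, and the most abundant was Nasp, with group means of 85.2 to 243 TPM and 190 bases at 95.3%. How the authors' quantification split reads of that stretch cannot be read from TPM. Gm14261, on the strand opposite to Sall4 and overlapping 293 of its bases, had at most 0.934 TPM. Whether the deposited values used the strand is not given in the sources used here.

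By count, 4 of the 6 factors were called in the XX transition, 1 higher and 3 lower, beside 31.3% of all genes tested. In the XY transition 4 were called, 2 higher and 2 lower, beside 50.5% of all genes. In the Tet3-/- transition 4 were called, 1 higher and 3 lower, beside 35.1% of all genes, and without mutant #3 1 higher and 4 lower, beside 11.1% and 33%. On scaled values the counts were 5, 6 and 4, beside 50.4%, 51.4% and 52.4%. Utf1 was the factor called higher in every transition on both scales, and Sox2 and Zfp42 were called lower in every transition on both scales. The median log2 fold change of the 6 was -1.17, -0.38 and -1.81 on TPM in XX, XY and Tet3-/-, against the medians of all genes given above.

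**Figure D2:**
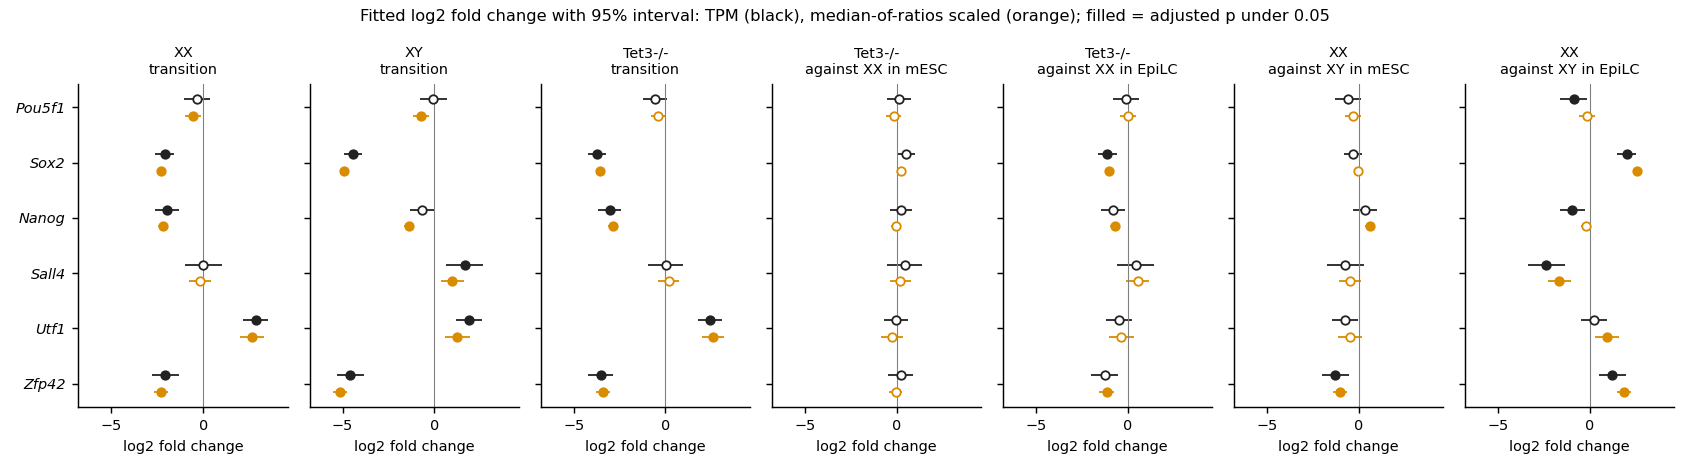
Fitted log2 fold change of each core factor with its 95% interval in 7 comparisons of groups, EpiLC minus mESC for transitions and the group named first minus the other elsewhere, on TPM in black and on scaled values in orange; filled points have an adjusted p under 0.05. Sox2 and Zfp42 lie furthest left in the XY transition, at -4.43 and -4.57 on TPM, and no point is filled for Tet3-/- against XX in mESC.

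The transitions of the LF2 and E14 lines were compared by a test of the difference between them. The fall of Sox2 was smaller in XX, by 2.32 log2 units (SE 0.34, limma adjusted p 0.000141). That of Zfp42 was smaller in XX by 2.51 (SE 0.50, limma adjusted p 0.00179). These were the 2 factors called, beside 16% of all genes. The difference for Nanog had the other sign, -1.30 (SE 0.45, limma adjusted p 0.0542), with a larger fall in XX. It was -1.64 for Sall4 (limma adjusted p 0.111), 0.97 for Utf1 (limma adjusted p 0.186) and -0.29 for Pou5f1 (limma adjusted p 0.719). On scaled values 5 factors were called, beside 23.7% of all genes, namely Sox2 (2.59), Zfp42 (2.86), Utf1 (1.42), Nanog (-0.85) and Sall4 (-1.17, limma adjusted p 0.0475). On TPM, leaving out XY mESC library 3 gave calls for Nanog (-1.57) and Sall4 (-2.02), leaving out XY mESC library 2 for Utf1 (1.40), and leaving out XX mESC library 1 for Nanog (-1.50).

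Within mESC, XX and XY differed by 1 called factor of the 6, beside 14.2% of all genes. Zfp42 was lower in XX than in XY, at -1.29 on the log2 scale (SE 0.35, limma adjusted p 0.0175), although the lowest XY library (111 TPM) was below the highest XX library (120.1 TPM). The call was lost without XX mESC library 1 or 3 or XY mESC library 1 or 3 (limma adjusted p 0.0709 to 0.103). It was also lost in a fit of these groups alone (limma adjusted p 0.16). On scaled values the XX and XY libraries did not overlap, at 79.9 to 114 and 151 to 225, and the change was -1.02 (limma adjusted p 0.000497). Nanog was called on scaled values only, higher in XX by 0.62 (limma adjusted p 0.0015), beside 31.3% of all genes. Without XX mESC library 2 Pou5f1 was called too (-1.001, limma adjusted p 0.0302), and without XY mESC library 2 Utf1 was (-1.17, limma adjusted p 0.0131).

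Within EpiLC, 5 of the 6 factors differed between XX and XY on TPM, 2 higher and 3 lower in XX, beside 47.2% of all genes. Sox2 was higher in XX by 2.01 (SE 0.24, limma adjusted p 6.1e-06) and Zfp42 by 1.21 (SE 0.35, limma adjusted p 0.0111). Sall4 was lower in XX, at -2.38 (SE 0.48, limma adjusted p 0.000997). These 3 kept their direction and call on scaled values, at 2.55, 1.84 and -1.66.

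The other EpiLC differences between the lines depended on the scale. Pou5f1 was lower in XX on TPM by -0.89 (SE 0.34, limma adjusted p 0.0426) and Nanog by -0.96 (SE 0.32, limma adjusted p 0.0209). On scaled values they were -0.15 (limma adjusted p 0.624) and -0.23 (limma adjusted p 0.175), neither called. The Pou5f1 call was also lost without any 1 of the 6 EpiLC libraries of these groups (limma adjusted p 0.0723 to 0.103). The Nanog call was lost without XX EpiLC library 1 or 2 or XY EpiLC library 2 or 3 (limma adjusted p 0.0528 to 0.0651). Utf1 was 0.23 on TPM (limma adjusted p 0.59) and higher in XX by 0.93 on scaled values (limma adjusted p 0.0298). The scaled count was 4, beside 33.8% of all genes.

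Tet3-/- mESC were compared with XX mESC of the same line. None of the 6 factors was called by limma, on TPM or on scaled values, beside 0.601% and 3.19% of all genes. Beside 1359 (TPM) and 2238 (scaled) of the 14972 genes tested, 1 of the 6 had an unadjusted p under 0.05 on each scale. That factor was Sox2, named after its value was seen, at 0.52 (95% interval 0.04 to 0.99, limma adjusted p 0.485), whose Tet3-/- libraries lay above the XX libraries. The 95% intervals of the others on TPM were -0.55 to 0.80 for Pou5f1, -0.39 to 0.85 for Nanog, -0.51 to 1.37 for Sall4, -0.68 to 0.64 for Utf1 and -0.46 to 0.92 for Zfp42. Differences of these sizes could not be told from 0 with these libraries.

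Tet3-/- EpiLC differed from XX EpiLC by lower Sox2, the single factor called on TPM, beside 1.08% of all genes. Its log2 fold change was -1.11 (SE 0.24, limma adjusted p 0.0285), a 2.25-fold ratio of group means, and its 3 mutants lay below the 3 XX libraries. Without mutant #3 it was -1.35 (limma adjusted p 0.00422). The call was lost without any of XX EpiLC 1, 2 or 3 or mutants #1 or #4 (limma adjusted p 0.0728 to 0.188), with no filter on low values (limma adjusted p 0.0533), and in a fit of these groups alone (limma adjusted p 0.232).

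Zfp42 and Nanog were also below every XX EpiLC library in all 3 mutants. The share of all genes separated in this way is not given here, so the separation by itself is not read as a result. On TPM Zfp42 was at -1.24 (SE 0.35, limma adjusted p 0.115). Nanog was at -0.82 (SE 0.32, limma adjusted p 0.34). Without mutant #3 both were called, at -1.59 (limma adjusted p 0.0238) and -1.17 (limma adjusted p 0.0487). On scaled values 3 factors were called, beside 5.46% of all genes: Sox2 (-1.01, limma adjusted p 2.1e-05), Zfp42 (-1.15, limma adjusted p 0.00142) and Nanog (-0.71, limma adjusted p 0.00365). The same 3 were called on scaled values without mutant #3, at -0.99, -1.23 and -0.77. Pou5f1 was at -0.09 (95% interval -0.82 to 0.63), Utf1 at -0.45 (-1.16 to 0.25) and Sall4 at 0.44 (-0.56 to 1.44), and without mutant #3 they were at -0.49, -0.60 and -0.13, none called.

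The difference between the Tet3-/- and XX transitions was called for 0 of the 6 by limma on TPM, beside 0.174% of all genes. Beside 1152 of the 14972 genes tested, 3 of the 6 had an unadjusted p under 0.05. They were Sox2 (-1.62, limma adjusted p 0.0561), Zfp42 (-1.47, limma adjusted p 0.381) and Nanog (-1.05, limma adjusted p 0.556). On scaled values Sox2 was called, with a fall that was larger in Tet3-/- by 1.26 (limma adjusted p 0.000279), beside 0.661% of all genes. Without mutant #3 the differences on TPM were -1.87 for Sox2 (limma adjusted p 0.00686), -1.82 for Zfp42 (limma adjusted p 0.0752) and -1.41 for Nanog (limma adjusted p 0.106). Without XX mESC library 2 that of Sox2 was -1.80 (limma adjusted p 0.0124). Both Tet3-/- EpiLC comparisons share the XX libraries with the XX transition.

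The ratio of each factor to Pou5f1 within a library does not depend on what the rest of the TPM holds. Sox2 was at 26.9% ± 7.06 (SD, n = 3) of the Pou5f1 level in XX mESC, 21.8% ± 3.25 (SD, n = 3) in XY mESC and 34.9% ± 6.27 (SD, n = 4) in Tet3-/- mESC. In EpiLC it was at 7.41% ± 0.320 (SD, n = 3) in XX, 0.806% ± 0.0610 (SD, n = 3) in XY and 3.41% ± 0.497 (SD, n = 3) in Tet3-/-. The EpiLC groups did not overlap, and the order was that of the Sox2 levels.

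Zfp42 was at 8.14% ± 0.0743 (SD, n = 3) of Pou5f1 in XX EpiLC, 3.35% ± 0.175 (SD, n = 3) in Tet3-/- EpiLC and 1.76% ± 0.123 (SD, n = 3) in XY EpiLC. Mutant #3 lay within this narrow spread, since the 3 mutants ranged from 3.196% to 3.54%. The log2 ratio was lower in Tet3-/- than in XX EpiLC by 1.28 for Zfp42, 1.13 for Sox2 and 0.76 for Nanog, and without mutant #3 the differences were -1.28, -1.01 and -0.73. The groups did not overlap for these 3 ratios.

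Nanog was at 18.6% ± 0.288 (SD, n = 3) of Pou5f1 in XX EpiLC and 19.8% ± 0.827 (SD, n = 3) in XY EpiLC, which overlapped. In mESC it was at 60.1% ± 12.4 (SD, n = 3) in XX, separate from 31.0% ± 4.39 (SD, n = 3) in XY. Utf1 went from 1.51% ± 0.979 (SD, n = 3) to 14.0% ± 1.51 (SD, n = 3) in XX. In XY it went from 1.51% ± 0.491 (SD, n = 3) to 6.45% ± 0.871 (SD, n = 3). Sall4 was at 15.8% ± 2.18 (SD, n = 3) of Pou5f1 in XY EpiLC and at a mean between 4.06% and 7.90% in the other groups. The exact 2-sided permutation test over 35 ratio comparisons gave adjusted p-values of 0.159 or more, and it could not pass the threshold, since 3 against 3 libraries cannot go below 0.1 and 3 against 4 cannot go below 0.0571.

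**Figure D3:**
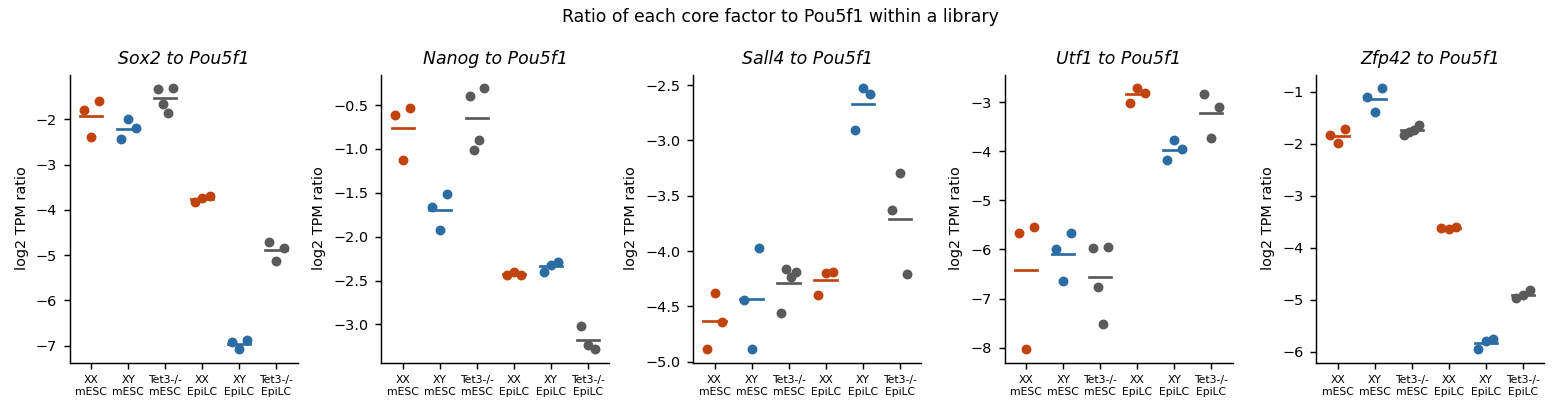
Log2 ratio of each of 5 core factors to Pou5f1 in the same library, by group; points are libraries, lines are group means, and colours are as for the levels. The EpiLC points of Sox2 and Zfp42 fall in 3 separate steps, XX above Tet3-/- above XY, with Sox2 at means of -3.76, -4.89 and -6.96.

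The table holds 21 transcripts of the 6 genes, of which 14 passed the filter. Splits between transcripts that share exons are estimates of the authors' quantification. A single transcript carried most of Pou5f1 (Pou5f1-201, a group mean of 98.02% or more), Nanog (Nanog-201, 98.2% or more) and Sall4 (Sall4-201, 82.3% to 93.3%), and Sox2 and Utf1 have 1 transcript each. Of the 14, 6 were called in the XX transition, 10 in XY and 6 in Tet3-/-, beside 20.2%, 41.8% and 21.9% of all transcripts. Of the 14, 3 (Sall4-203, Sall4-207 and Pou5f1-206) passed the filter only through XY EpiLC, where they are high, Sall4-206 only through EpiLC libraries and Zfp42-202 only through mESC libraries, so that their called changes were in part fixed by the filter. Of the other 9, 5 were called in each transition: 1 higher and 4 lower in XX and in Tet3-/-, and 2 higher and 3 lower in XY. Sall4-201 rose in XY by 1.60 (limma adjusted p 0.0114).

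Zfp42 showed a shift between transcripts. Zfp42-201 held 90.7% ± 0.373 (SD, n = 3) of Zfp42 TPM in XX mESC and 82.1% ± 1.09 (SD, n = 3) in XX EpiLC, and Zfp42-203 held 2.33% ± 0.418 (SD, n = 3) and 14.2% ± 0.536 (SD, n = 3). Zfp42-203 held 14.8% ± 2.38 (SD, n = 3) in XY EpiLC and held 41.2%, 13.0% and 22.5% in Tet3-/- EpiLC mutants #1, #3 and #4. In the XX transition Zfp42-201 fell by 2.20 (limma adjusted p 0.000301) and Zfp42-202 by 1.94 (limma adjusted p 7.0e-05), while Zfp42-203 was at 0.31 (limma adjusted p 0.59), with 1.86 ± 0.841 TPM (SD, n = 3) in mESC and 2.45 ± 0.0493 TPM (SD, n = 3) in EpiLC. In XY all 3 fell, with log2 fold changes of -4.65 for Zfp42-201, -3.599 for Zfp42-202 and -1.92 for Zfp42-203. The falls of Zfp42-202 were in part fixed by the filter, which it passed only through mESC libraries. Zfp42-203 has 5 exons and the other two 4.

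**Figure D4:**
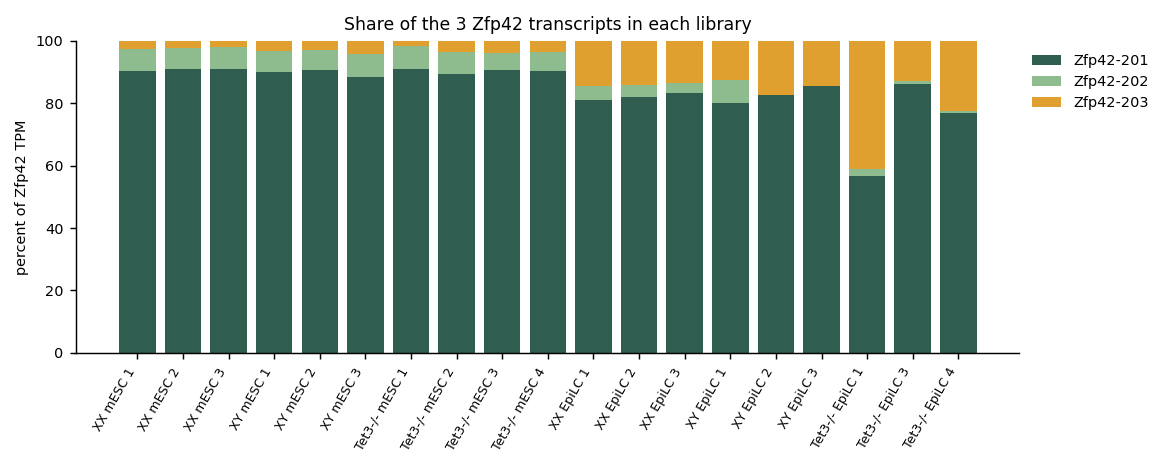
Percent of Zfp42 TPM in each of its 3 transcripts, as a stacked bar for each of the 19 libraries. Zfp42-203 stays between 1.74% and 4.27% in the mESC libraries and is at 12.5% or more in every EpiLC library.

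Other genes of the network were counted from lists chosen by known function, each count by limma on TPM unless scaled values are named. A gene that passed the filter only through 1 state is there because of its level in that state. Its change between the states was therefore in part fixed by the filter, and such genes are counted beside each list. Of 14 naive network genes, 11 fell in XX, 13 in XY and 11 in Tet3-/-, beside 12.2%, 9.36% and 21.5% of all genes lower. On scaled values 14 fell in XY, beside 25% of all genes lower, and the other counts were the same. The Tet3-/- count was 13 without mutant #3, beside 33% lower. Of the 14, 2 passed the filter only through mESC. Klf4, a factor that sustains the naive state, went from 44.9 ± 11.4 to 1.26 ± 0.180 TPM (SD, n = 3 each) in XX. Esrrb, an orphan nuclear receptor that binds many of the same enhancers, went from 76.3 ± 30.2 to 0.714 ± 0.150 TPM (SD, n = 3 each) in XY and from 105 ± 12.5 (SD, n = 4) to 3.71 ± 2.91 TPM (SD, n = 3) in Tet3-/-. The 3 mutants had 1.57, 7.03 and 2.52 TPM, with #3 highest. In EpiLC Esrrb was at 12.6 ± 1.26 TPM (SD, n = 3) in XX, so its order was the same as that of Sox2. In EpiLC 9 of the 14 were higher in XX than in XY, beside 5.23% of all genes higher, and 12 were on scaled values, beside 17.2%.

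In Tet3-/- EpiLC 3 of the naive network genes were lower than in XX, beside 0.955% lower: Tcl1 (-1.88), Esrrb (-1.70) and Fgf4 (-1.21). On scaled values 8 were lower, beside 2.96%. Without mutant #3 the count on TPM was 5, beside 1.98%, with Tcl1 at -2.19 (limma adjusted p 0.0203), Esrrb at -2.17 (limma adjusted p 0.000641) and Fgf4 at -1.41 (limma adjusted p 0.0143). No naive network gene was called higher there on either scale.

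Of 17 formative genes, which mark the state after the naive state, 12 rose and 3 fell in XX, 14 rose and 2 fell in XY, and 12 rose and 2 fell in Tet3-/-, beside 19.2%, 41.1% and 13.6% of all genes higher. On scaled values 12 rose and 2 fell in XY, beside 26.4% higher, and the other counts were the same. The Tet3-/- counts without mutant #3 were also 12 and 2, beside 11.1% higher. Of the 17, 5 passed the filter only through EpiLC, Fgf5, Pou3f1 and Sox3 among them. Their rises were in part fixed by the filter, so the counts of rises that include them are not a test against the shares. Fgf5, a growth factor gene of the early epiblast, reached 56.3 ± 4.83 TPM (SD, n = 3) in XY EpiLC and 2.46 ± 0.292 TPM (SD, n = 3) in XX EpiLC, and it was 17.0 ± 23.1 TPM (SD, n = 3) in Tet3-/- EpiLC, whose spread exceeded its mean. Mutants #1, #3 and #4 had 3.605, 43.7 and 3.58 TPM, so the mean rested on #3. The rise of Fgf5 in Tet3-/- was 3.28 (limma adjusted p 3.5e-05) with it and 2.19 (limma adjusted p 1.0e-09) without it. In EpiLC 14 of the 17 were lower in XX than in XY and 1 higher, beside 42% of all genes lower. Lef1 and Fgf8 had means of 0.270 and 0.236 TPM in XX EpiLC, against 9.62 and 19.7 TPM in XY EpiLC. Their XX mESC means were 0.206 and 0.00815 TPM, so the XX groups did not bring them through the filter. Their lower level in XX was in part fixed by it, and this count is not a test against that share. In Tet3-/- EpiLC Sox3 alone was called against XX (0.82, limma adjusted p 0.00452), at 2.86 ± 0.360 against 1.19 ± 0.166 TPM (SD, n = 3 each), beside 0.12% of all genes higher. Without mutant #3 Sox3 was again the one called, at 0.75 (limma adjusted p 0.00733), beside 0.14%. On scaled values 5 of the 17 were higher, beside 2.5%. Sox3 encodes a close relative of SOX2.

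Relatives of the factors were counted as families. Of 11 other SOX genes, 7 were tested, and 4 rose and 2 fell in XX, 4 rose and 2 fell in XY, and 3 rose and 2 fell in Tet3-/-. The shares of all genes higher and lower were 19.2% and 12.2% in XX, 41.1% and 9.36% in XY, and 13.6% and 21.5% in Tet3-/-. With so few genes, of which 3 passed the filter only through EpiLC and 1 only through mESC, nothing is read from these counts. On scaled values 3 fell in XY and 4 rose in Tet3-/-, and without mutant #3 3 fell in Tet3-/-. Sox11 and Sox4, which act in differentiating cells, were at 0.0110 and 0.716 TPM in XX mESC and at 4.53 and 5.84 TPM in XX EpiLC (means, n = 3). Sox21 was the SOX gene called in Tet3-/- mESC, at 6.44 ± 2.41 TPM (SD, n = 4) against 1.19 ± 0.389 TPM (SD, n = 3) in XX, 1.73 higher on the log2 scale (limma adjusted p 0.000733). Of 12 other POU genes, 5 were tested, and Pou3f1 (OCT6) rose in each transition, by 1.99 in XX, 3.51 in XY and 2.77 in Tet3-/-. The 3 Tet3-/- EpiLC mutants #1, #3 and #4 had 3.05, 18.1 and 3.41 TPM of Pou3f1, and without #3 its rise was 2.05. In all, 1 of the 5 rose and 1 fell in XX and in Tet3-/-, and 2 rose and 1 fell in XY, against the shares of all genes just given. On scaled values 1 rose and 2 fell in XX and in Tet3-/-, and 1 rose and 3 fell in XY, where Pou2f1 was at 0.97 on TPM (limma adjusted p 0.0306) and 0.36 on scaled values (limma adjusted p 0.161). The scaled shares of all genes were 24.5% higher and 25.9% lower in XX, 26.4% and 25% in XY, and 25.2% and 27.2% in Tet3-/-. Without mutant #3, 1 rose and 2 fell in Tet3-/-. Of the 5, 1 (Pou3f1) passed the filter only through EpiLC, so that its rises were in part fixed, and 2 only through mESC.

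Of the 3 other SALL genes, Sall2 rose in each transition, by 1.08 in XX, 3.29 in XY and 1.51 in Tet3-/-. The shares of all genes higher were 19.2%, 41.1% and 13.6%. Of the 3, 1 fell in XY, beside 9.36% of all genes lower. Without mutant #3 the rise of Sall2 in Tet3-/- was 1.35, and 1 of the 3 fell there too, as on scaled values. The shares of all genes lower were 33% without mutant #3 and 27.2% on scaled values. On scaled values 1 was also higher and 1 lower in Tet3-/- than in XX EpiLC, beside 2.5% and 2.96% of all genes. TPM gave 0 calls there, with or without mutant #3. Of the 3, 1 passed the filter only through mESC. Sall2 was at 30.5 ± 4.92 TPM (SD, n = 3) in XY EpiLC and 2.19 ± 0.213 TPM (SD, n = 3) in XX EpiLC, so XY EpiLC was high for both Sall4 and Sall2. Of the 2 YY1 family genes, relatives of Zfp42, both rose in XY and 1 fell in Tet3-/- on TPM, with or without mutant #3, beside 41.1% of all genes higher in XY and 21.5% lower in Tet3-/-. On scaled values neither was called in XY, and 1 fell in XX, beside 25.9% of all genes lower. In XY Yy1 was at 0.77 on TPM (limma adjusted p 0.0418) and 0.13 on scaled values (limma adjusted p 0.308).

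Of 12 genes known as targets of OCT4 and SOX2, 4 rose and 6 fell in XX, 3 rose and 6 fell in XY, and 2 rose and 7 fell in Tet3-/-. Of all genes, 19.2% rose and 12.2% fell in XX, 41.1% and 9.36% in XY, and 13.6% and 21.5% in Tet3-/-. On scaled values 7 fell in XX and 8 in XY, beside 25.9% and 25% of all genes lower, and 3 rose in Tet3-/-, beside 25.2% higher. Without mutant #3 the Tet3-/- counts were the same as with it, beside 11.1% higher and 33% lower. Of the 12, 1 passed the filter only through EpiLC. The list therefore split. Spp1 (osteopontin) went from 163 ± 63.9 to 6.48 ± 0.235 TPM (SD, n = 3 each) in XX, and Lin28a, an RNA-binding repressor of let-7, from 0.950 ± 0.851 to 50.5 ± 2.13 TPM (SD, n = 3 each). Dppa5a, abundant in mESC, was at 777 ± 36.5 TPM (SD, n = 3) in XX EpiLC, 240 ± 70.7 TPM (SD, n = 3) in Tet3-/- EpiLC and 97.7 ± 1.08 TPM (SD, n = 3) in XY EpiLC. It was lower in Tet3-/- than in XX EpiLC by a log2 fold change of -1.73 (adjusted p 0.00161 by limma), and Fgf4 was the other target called there. Without mutant #3 Dppa5a was at -1.59 (limma adjusted p 0.00559) and 3 targets were lower, beside 1.98% of all genes, and on scaled values 4 were, beside 2.96%. Between XX and XY EpiLC 3 targets were higher in XX and 2 lower, beside 5.23% and 42% of all genes, and on scaled values 7 and 2, beside 17.2% and 16.6%.

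Of 25 known partners of OCT4, NANOG and SALL4, mostly chromatin proteins, 3 rose and 2 fell in XX, 11 rose and 1 fell in XY, and 1 rose and 5 fell in Tet3-/-. These stand beside 19.2% of all genes higher and 12.2% lower in XX, 41.1% and 9.36% in XY, and 13.6% and 21.5% in Tet3-/-. The partners' counts moved with the scale, since on scaled values 8 rose and 6 fell in XX, 5 rose and 4 fell in XY, and 8 rose and 6 fell in Tet3-/-. The scaled shares of all genes lay between 24.5% and 27.2% in each direction and transition. Between XX and XY EpiLC 1 partner was higher in XX and 15 lower, beside 5.23% and 42% of all genes, and on scaled values 3 and 6, beside 17.2% and 16.6%. Without mutant #3, 0 rose and 8 fell in Tet3-/- on TPM, beside 11.1% and 33% of all genes. Arid3b rose in the XX and XY transitions on both scales, from 3.39 ± 1.78 to 10.4 ± 1.17 TPM (SD, n = 3 each) in XX. Its Tet3-/- change was 1.28 (limma adjusted p 0.00872), and 0.73 (limma adjusted p 0.0556) without mutant #3. Chd4, the NuRD remodeller, rose in XX from 24.8 ± 9.36 to 55.2 ± 8.25 TPM (SD, n = 3 each), and Hdac2, a NuRD deacetylase, fell from 55.0 ± 15.5 to 29.8 ± 2.00 TPM (SD, n = 3 each).

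The genes most like each factor were found by Pearson's r over the 19 libraries on log2 scaled values, among 10345 genes. They are a description, since the libraries share 2 states and 2 lines. Sox2 was closest to Gtsf1l (r 0.996), Esrrb (0.991) and Tfcp2l1 (0.988), and Zfp42 to Mylpf (0.994), Lncenc1 (0.989) and Morc1 (0.985). Nanog was closest to Ly75 (0.978), Kit (0.978) and Pdxk (0.974), and Utf1 to Spry1 (0.976), Prss8 (0.971) and Epb41l2 (0.969). Pou5f1 was closest to Tomm5 (0.976), AA465934 (0.972) and Eif4a1 (0.964), and Sall4 to Supt16 (0.957), Pkd2 (0.951) and N6amt1 (0.938). Among the 6 themselves, r was 0.97 between Sox2 and Zfp42 and -0.91 between Nanog and Utf1, and 0.03 between Sall4 and Utf1.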

How the data were processed

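Total RNA depleted of ribosomal RNA was sequenced from 19 libraries, per the labels' protocols. The authors deposited TPM for 140948 transcripts, and each column sums to 1000000. FastQC 0.11.7, Trimmomatic 0.35, Salmon 1.1.0 and GRCm38 are named in the submitters' processing notes; the annotation release is not given in the sources used here. Depth is unknown, so the spread within groups sets the precision. Transcripts were summed per gene with GENCODE M21; 1096 did not match and were left out, with at most 0.215% of TPM.

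Genes that reached 1 TPM in 3 or more libraries were fitted with limma 3.58.1 in R 4.3.3 on log2(TPM + 1), with 6 groups in 1 fit, eBayes with a trend and 9 contrasts, and Benjamini-Hochberg adjustment over all tested genes with a threshold of 0.05. This scale understates changes of low genes. The fit was tested on simulated data. Ratios used exact permutation tests in SciPy 1.17.1, and shared sequence was found with BLAST 2.17.0. Alternatives were another pseudocount, other filters, 3 other scalings, eBayes without a trend, fits of only the groups compared, protein_coding transcripts only, a minimum fold change, replicate blocks and each library left out. A combination of scaling with the loss of mutant #3, and list counts with scaling or without mutant #3, were added after seeing the data.

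The members and lists were chosen with earlier results of these data known. Named genes are the 6 members, Tet3, at most 4 called genes a list and comparison by absolute change where some group averaged 5 TPM or more, and the 3 genes most like each member.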

Additional observations from a re-analysis of the deposited data

Results flagged for a closer look

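Sox2 and Zfp42 differed between the lines in how far they fell from mESC to EpiLC. The difference of transitions, XX minus XY, was 2.32 log2 units for Sox2 (limma adjusted p 0.000141) and 2.51 for Zfp42 (limma adjusted p 0.00179), from the test of the difference itself. All 3 libraries of each EpiLC group lay on the same side, with XX above XY for both genes. The share of all genes separated in this way is not given here, so the separation is not read as a result. Between XX and XY EpiLC 47.2% of all genes were called. In mESC the lines overlapped for both genes on TPM, but Zfp42 was called lower in XX there. That call was lost without some single libraries. Scaled mESC libraries of Zfp42 did not overlap, at 79.9 to 114 in XX and 151 to 225 in XY. The Zfp42 difference is therefore not one of EpiLC levels alone. Of 12 such differences tested for the 6 factors, those of Sox2 and Zfp42 for XX minus XY were the 2 called. The shares of all genes called were 16% for XX minus XY and 0.174% for Tet3-/- minus XX. A library far from the others of its group was looked for in Tet3-/- mESC, the only group with more than 3 libraries, and 0 of 6 factors had one.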

How the results depend on the processing

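The count of factors called was within 1.5 times its value under every alternative for the XX, XY and Tet3-/- transitions, and it stayed at 0 for Tet3-/- against XX in mESC. For Tet3-/- against XX in EpiLC (1 factor) it was 3 with median-of-ratios scaling, quantile normalization, protein-coding rescaling, or scaling without mutant #3, and 0 with no filter or with only the groups compared; leaving out single libraries gave 0 to 3. For XX against XY in mESC (1) it was 2 with each of the 3 scalings and 0 with only the groups compared; leaving out libraries gave 0 to 2. Between XX and XY EpiLC (5) the count was 3 with protein-coding rescaling and 3 with a log2 fold change of at least 1; leaving out libraries gave 3 to 4. For the difference of Tet3-/- and XX transitions (0) it was 1 with median-of-ratios scaling, with protein_coding transcripts, without a trend and with the replicate block, 2 with protein-coding rescaling and with scaling without mutant #3, and 3 with quantile normalization; leaving out libraries gave 0 to 1. For the difference of XX and XY transitions (2) it was 5 with median-of-ratios scaling and with quantile normalization; leaving out libraries gave 2 to 4. Transcript counts with TPM of at least 5 were 6 in the XY transition (10), 6 for XX against XY in EpiLC (10), 3 for the difference of XX and XY transitions (6) and 1 for Tet3-/- against XX in EpiLC (0). That last count was 1 with a pseudocount of 0.1 and 3 with scaling, and scaling gave 6 for XX against XY in mESC (3) and 1 for the difference of Tet3-/- and XX transitions (0). Of the gene lists, scaling or leaving out mutant #3 moved by over 1.5 times the counts of the naive network, formative, SALL and target lists for Tet3-/- against XX in EpiLC and of the SALL list and the partners in the Tet3-/- transition, as given with each list. The cause was not tested, except that the last filter tests fewer transcripts.

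Reversed signs concerned changes that were not called on TPM with all libraries. Among them, Pou5f1 in the XX and XY transitions and Nanog for XX against XY in mESC were called on scaled values. Pou5f1 for Tet3-/- against XX in mESC was -0.15, -0.12 and -0.0805 with median-of-ratios, quantile and protein-coding scaling, and -0.14 to 0.53 with a library left out. In EpiLC it was 0.0229 with scaling and 0.0365 with the replicate block, and -0.49 to 0.17 with a library left out. Its difference of Tet3-/- and XX transitions was 0.17 with scaling, 0.0945 with quantile normalization and 0.0800 with scaling without mutant #3, and -0.63 to 0.0461 with a library left out. Its difference of XX and XY transitions was 0.17 with scaling, 0.0221 with protein-coding rescaling and -0.56 to 0.11 with a library left out, and its XX and XY transitions were -0.62 to 0.0544 and -0.31 to 0.11. Sall4 in the XX transition was -0.19, -0.0960 and -0.0151 with the scalings, -0.000143 with protein_coding transcripts and -0.35 to 0.50 with a library left out. Sall4 in the Tet3-/- transition was -0.56 to 0.37, and -0.12 with scaling without mutant #3. Sall4 for Tet3-/- against XX in EpiLC was -0.13 to 0.80, and its difference of Tet3-/- and XX transitions was -0.57 to 0.36, or -0.0189 with a pseudocount of 0.1. Nanog and Zfp42 for Tet3-/- against XX in mESC were -0.0412 and -0.0450 with scaling, Zfp42 was -0.0286 to 0.56 with a library left out, and Nanog for XX against XY in mESC was -0.0161 to 0.61. Utf1 for Tet3-/- against XX in mESC was -0.32 to 0.21, and its difference of Tet3-/- and XX transitions was 0.0678 with scaling without mutant #3 and -0.66 to -0.13 with a library left out. Ratios to Pou5f1 reversed with a library left out for Nanog (-0.0764 to 0.23) and Utf1 (-0.96 to 0.30) in Tet3-/- against XX in mESC, and for Sall4 (-0.43 to 0.0285) and Utf1 (-0.75 to 0.51) in XX against XY in mESC.

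Same-numbered libraries of the 2 states deviated together with r of 0.0695, -0.0488 and 0.032 in XX, 0.186, -0.0426 and 0.243 in XY and 0.271, 0.303 and -0.0202 in Tet3-/-. Differently numbered ones had r of -0.118 to 0.0569 in XX, -0.258 to 0.111 in XY and -0.344 to 0.282 in Tet3-/-. With 3 or 4 libraries in a group these values cannot settle whether the numbers pair libraries. The replicate block changed only the count named above. Fits with libraries left out assume that the remaining ones vary like the other groups. TPM gives no depth, so changes of factors at a few TPM, such as Utf1 in mESC, are limited to an unknown extent by counting error.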
